A study of Mus musculus with 6 samples.

Results

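The 38 genes described here encode proteins of homologous recombination, the Fanconi pathway and the DNA damage checkpoint. They were chosen by symbol from a named list, by a rule that uses no measured value although earlier results of these data were known, out of 24732 genes with an expression value in RNA-seq of mouse female germline stem cells (FGSCs). All 38 symbols were found. Homologous recombination repairs a broken chromosome from an intact copy: the broken ends are trimmed to single strands, the single strands pair with the intact copy with the help of BRCA2, and the joined molecules are later separated. The Fanconi proteins detect and open crosslinks between the DNA strands and hand the break to recombination. ATM and ATR are the kinases that sense the damage and hold the cell cycle through CHEK2 and CHEK1, and oocytes and their precursors also use much of this machinery when chromosomes recombine in meiosis.

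Expression was compared between 3 control samples and 3 samples in which CTCF, a DNA-binding protein that shapes chromatin loops, was knocked down with a short hairpin RNA (shCTCF). The labels give C57BL/6 as the strain of both groups and a feeder layer of inactivated STO fibroblasts under both. Per the study's methods the cells came from ovaries of 6-day-old Ddx4-Cre; mT/mG mice, in which a germ cell promoter drives Cre. The labels give more than 20 passages. The hairpin was delivered with a lentivirus, and puromycin was then applied for 72 h. The sources used here do not describe the construct of the control samples, and the labels do not say whether the samples of a group were separate cultures. The p-values therefore measure the spread between these samples, which may be technical.

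Expression is given as FPKM, the fragments of a gene scaled to transcript length and to the mapped fragments of the library, which allows levels of different genes to be compared. The targeted gene Ctcf had 58.2, 56.1 and 53.5 FPKM in the controls, as against 0.74, 0.55 and 0.629 FPKM after knockdown. The groups did not overlap, and the mean was 98.9% lower after knockdown (log2 fold change -5.12 ± 0.09 SE, limma adjusted p = 1.1e-08). Ctcf had 0 counts in every sample, so in these data its change rests on the FPKM alone. Fold changes from FPKM are differences of log2(FPKM + 1) between shCTCF and control, and those from counts are of scaled counts, each with its standard error. Total counts lay between 1686052 and 7044272 fragments per sample, and the smallest library was control replicate 2. This library was the lowest of the 3 controls for 25 of the 35 tested genes of the list, and where leaving it out changed a call, the value without it is given. Of 6 female germline markers, Dppa3 and Gfra1 were listed at 0 in all samples, Ddx4, Pou5f1 and Dazl were listed at 0 in the controls and reached at most 0.182 FPKM in the shCTCF samples, and Ifitm3 had 0.737 FPKM in the controls and 10.8 in the shCTCF group. Of these markers of the labelled cell type, 5 were thus at or near 0 in every library, and Ifitm3 was so in the controls only. Of 15 myeloid and mast cell markers, Kit averaged 575 FPKM in the controls and 787 in the shCTCF samples and Gata2 501 and 560, whereas Fcer1a, Elane and Prtn3 were listed at 0. Single markers of that list moved far more: Cpa3 went from 281 to 88 FPKM, Ctsg from 151 to 2.22, Fcer1g from 98.6 to 282 and Hdc from 4.25 to 87.2. Of its 9 tested genes 2 were lower and 3 higher, and its summed level was 1800 to 1820 FPKM in the controls and 1990 to 2060 in the shCTCF samples. Of 15 fibroblast markers, 8 stayed under 1 FPKM in every sample, Col3a1 and Lum among them at 0. Of the 7 tested 3 were lower and 4 higher, and the sum of the list was 106 to 134 FPKM in the controls and 149 to 196 in the shCTCF samples. Most of that sum was S100a4, with means of 107 and 141 FPKM, while Col6a1 went from 0.144 to 15.3 FPKM and Pdgfrb from 6.09 to 2.16. The part of other cell types in the results below was not tested. In such bulk samples, fewer cells of a type and less RNA per cell cannot be told apart.

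The genes of the list were lower after CTCF knockdown far more often than higher. Of 38 genes, 35 had a mean of at least 1 FPKM and were tested with limma, and 20 were lower, 2 were higher (Brca1 and Fancm) and 13 did not pass an adjusted p of 0.05. Among all 9976 genes tested, 44.2% were lower and 28.8% were higher in the shCTCF group, 73.0% in all. The values of the groups did not overlap for the same number of genes, 20 lower and 2 higher, and for 45.8% and 30.8% of all genes in these directions. The median log2 fold change of the 35 genes was -0.59, and that of all genes was -0.17. Relative to the latter, the change was -1.20 for Nbn, -1.13 for Fancd2, -1.13 for Atr and -1.05 for Chek1, and 0.47 for Brca1 and 0.58 for Fancm. When every sample was set to the same median, 18 genes of the list were lower and 3 higher, beside 3606 lower and 3482 higher of all 9976 genes. The summed FPKM of the 38 genes was 333, 288 and 318 in the controls, as against 183, 200 and 203 after knockdown, with no overlap between the groups. For the 19 lower genes other than Rad54l, which was listed at 0 after knockdown, the mean ratio of shCTCF to control lay between 0.329 (Fancd2) and 0.71 (Rad54b), and 10 of them were at 0.5 times the control mean or less. The share of all genes at or under that ratio was not counted.

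**Figure D1:**
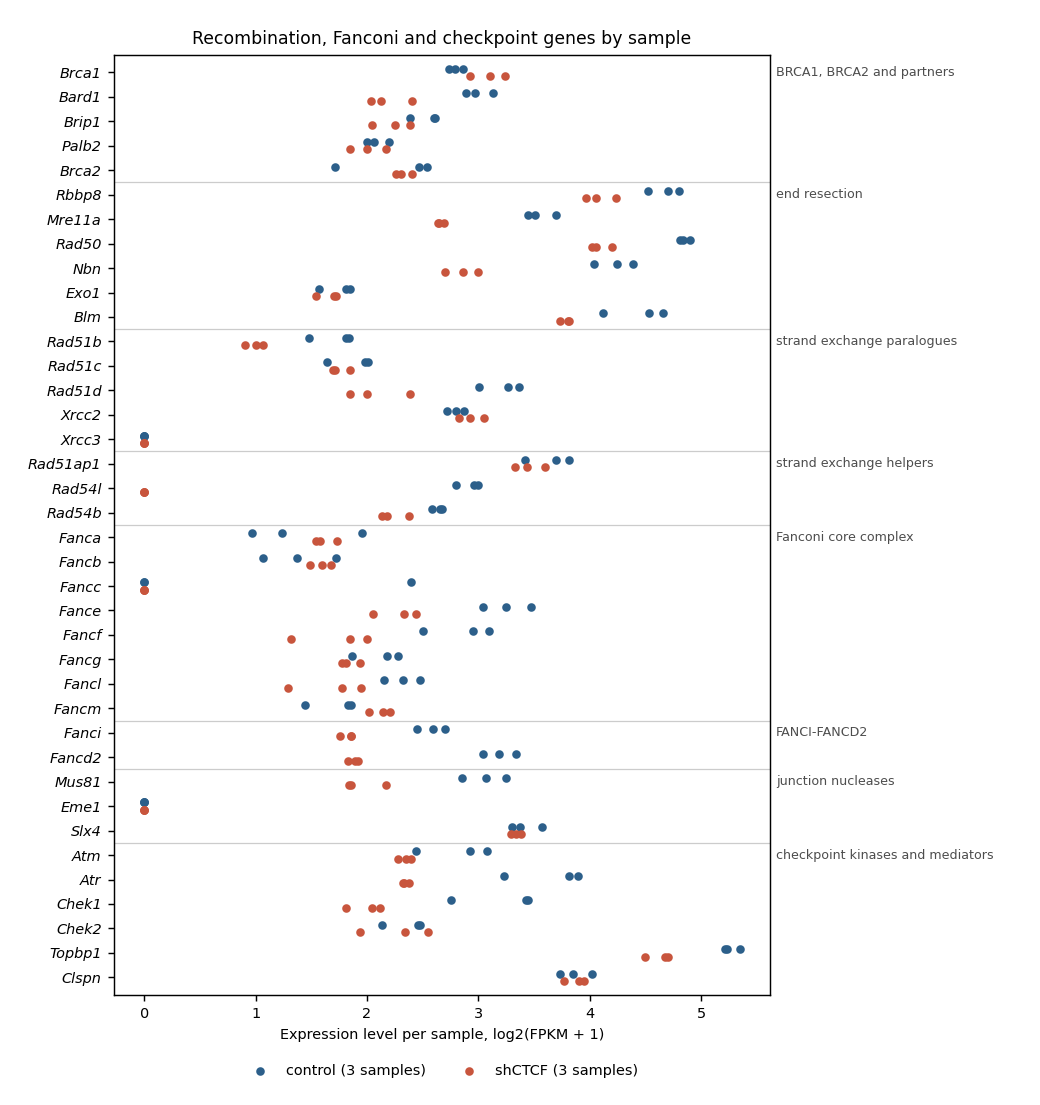
Level of each of the 38 genes in each of the 6 samples as log2(FPKM + 1), with 1 point per sample, controls in blue and shCTCF samples in red, ordered by role. Nbn, Fancd2, Atr and Chek1 show the groups well apart, Brca1 and Fancm lie to the right after knockdown, and Xrcc3 and Eme1 are listed at 0 in every sample.

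Counts of whole fragments gave a second measurement for part of the genes. The deposited counts leave out fragments that overlap more than 1 transcript accession, and 16 of the 38 genes, each with several overlapping accessions, had too few counts to be tested. Of the 22 tested with edgeR, 12 were lower, 2 were higher (Brca1 and Xrcc2) and 8 did not pass, where 34.3% of all 7341 genes tested were lower and 34.8% higher (69.1% in all). Counts scaled to library size and TMM (a scaling factor per sample) did not overlap for 10 lower and 2 higher genes of the list. The shares of all genes were 35.0% and 36.2%. Both tables tested 20 genes, of which 11 were lower in both, 1 was higher in both (Brca1), 6 passed in neither, and none (0) was called in opposite directions. How often all genes were called alike in both was not counted. Fancd2 and Xrcc2 passed in 1 table each. The 2 tables hold the same libraries and are not independent samples. The counting did not use strand. Atr, Fanca, Fancd2 and Fancl, like several genes named below, overlap exons of a gene on the other strand. Fragments in such a shared stretch were left out of the counts.

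**Figure D2:**
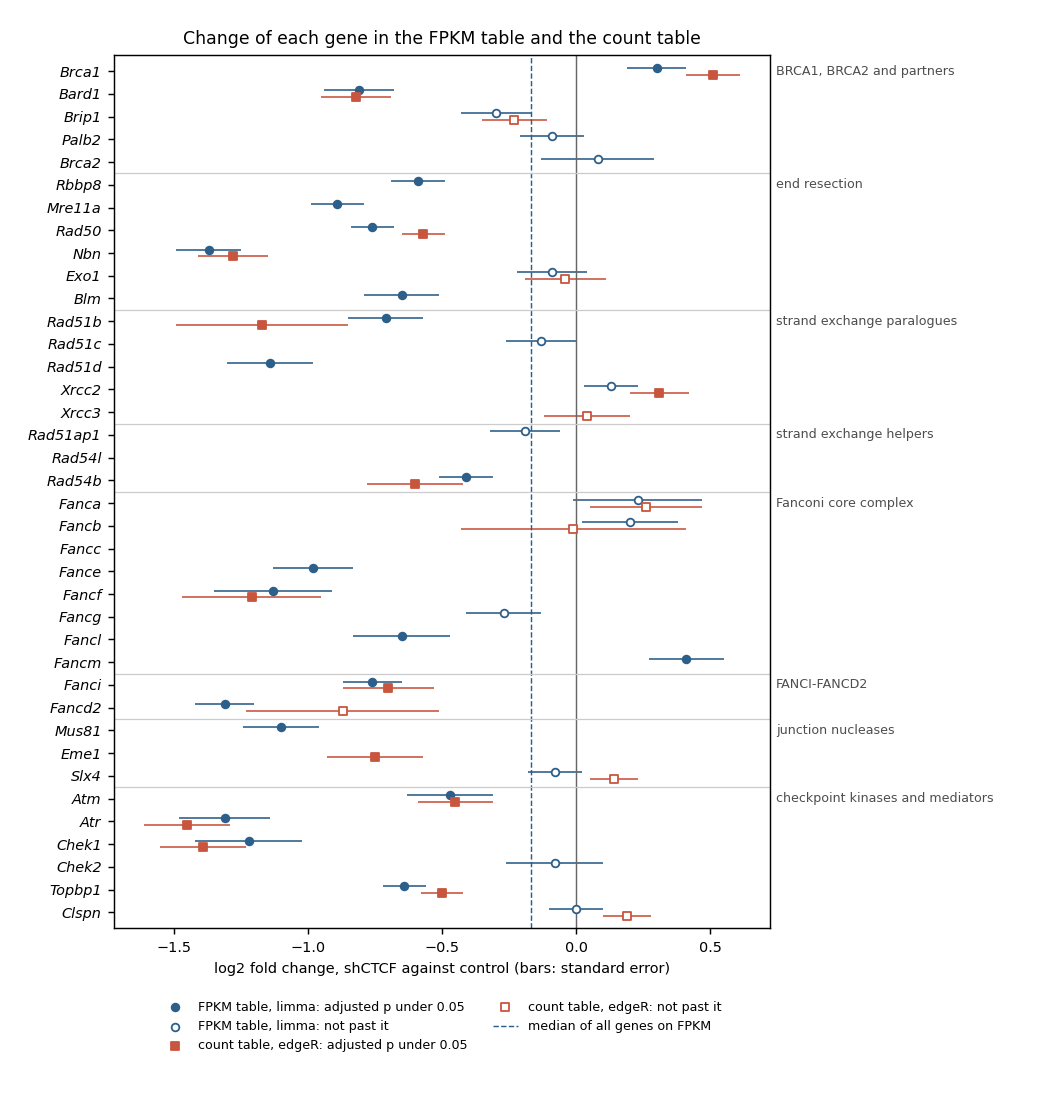
log2 fold change of each gene between shCTCF and control with its standard error, from the FPKM table (blue circles) and the count table (red squares), where filled symbols have an adjusted p under 0.05 and the dashed line is the median of all genes on FPKM, -0.17. Filled symbols lie to the left for most end resection genes, for FANCI and FANCD2 genes and for Atr and Chek1, and Rad54l, listed at 0 after knockdown, has no fold change drawn.

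Promoter sequences are shown for 5 genes with different outcomes, because many genes of this pathway carry words bound by E2F factors, the regulators that switch genes on at the start of DNA replication. Sequences are from RefSeq (GRCm38.p6), 250 bases before the start site, written 5′ to 3′ on the strand of the gene, and E2F words or their reverse complements are in capitals. The words searched on both strands were TTCCCGC, its variant TTCGCGC, and the further forms TTGGCGC and also TTGCCGC. Bard1, at chr1:71102973-71103222 (minus strand), and Topbp1, at chr9:103305077-103305326 (plus strand), were lower after knockdown and carry E2F words, which overlap each other in Topbp1. Fancm, at chr12:65075353-65075602 (plus strand), was higher and carries 2 words. Chek2, at chr5:110839733-110839982 (plus strand), did not pass the test and carries 1 word, and Atr, at chr9:95857347-95857596 (plus strand), fell and has none in this window.
Bard1: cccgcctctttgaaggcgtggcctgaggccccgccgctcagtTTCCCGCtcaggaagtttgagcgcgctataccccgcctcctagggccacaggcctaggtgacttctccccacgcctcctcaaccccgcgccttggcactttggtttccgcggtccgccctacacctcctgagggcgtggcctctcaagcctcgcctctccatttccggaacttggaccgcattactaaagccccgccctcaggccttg
Topbp1: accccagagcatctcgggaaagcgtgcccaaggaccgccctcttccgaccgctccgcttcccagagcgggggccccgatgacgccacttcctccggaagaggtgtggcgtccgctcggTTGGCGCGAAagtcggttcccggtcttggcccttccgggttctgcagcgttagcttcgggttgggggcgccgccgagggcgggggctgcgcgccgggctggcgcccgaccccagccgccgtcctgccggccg
Fancm: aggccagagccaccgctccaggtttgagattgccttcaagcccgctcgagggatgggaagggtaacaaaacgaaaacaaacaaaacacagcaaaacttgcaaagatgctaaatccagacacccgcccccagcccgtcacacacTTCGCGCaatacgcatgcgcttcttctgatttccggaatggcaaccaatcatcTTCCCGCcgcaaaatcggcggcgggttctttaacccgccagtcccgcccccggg
Chek2: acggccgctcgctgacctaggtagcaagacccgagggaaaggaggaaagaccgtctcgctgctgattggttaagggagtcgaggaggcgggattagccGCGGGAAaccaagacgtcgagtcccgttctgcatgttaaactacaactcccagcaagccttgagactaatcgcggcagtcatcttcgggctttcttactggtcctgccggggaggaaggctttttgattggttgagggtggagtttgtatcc
Atr: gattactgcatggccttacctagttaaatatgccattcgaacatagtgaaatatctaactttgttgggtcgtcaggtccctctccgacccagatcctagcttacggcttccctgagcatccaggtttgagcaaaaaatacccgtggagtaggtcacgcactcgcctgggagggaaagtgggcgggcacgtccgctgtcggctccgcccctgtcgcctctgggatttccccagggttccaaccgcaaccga

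A promoter window, which adds the 50 bases after the start site, was found for 30 of the 38 genes. An E2F word lay in 17 of these (56.7%), and in 10.9% of the 27025 genes with a window. Each E2F word holds the letters CG, and the windows compared were not matched for base content. By outcome on FPKM, a word was found in 7 of 14 lower genes, in both higher genes (2 of 2), in 8 of 11 genes that did not pass the test and in 0 of 3 that were not tested. These shares rest on few genes and their difference was not tested. The NF-Y word CCAAT lay in 63.3% of the windows of the list and in 41.1% of all, and the cell cycle word TTTGAA in 10.0% and 20.2%. A CTCF core word lay in 3 windows, those of Fanca, Fancm and Atm (10.0%, beside 9.84% of all genes). A match describes these letters only and is not a site that was shown to be bound.

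BRCA1, BRCA2 and their partners did not move together. BRCA1 and BARD1 form 1 ubiquitin ligase that steers a break toward recombination. Brca1 (mm9 chromosome 11, 101350078 to 101413269) had 6.28, 5.65 and 5.92 FPKM in the controls, as against 6.61, 7.62 and 8.43 after knockdown. Every shCTCF sample lay above every control, with a log2 fold change of 0.30 ± 0.11 SE (limma adjusted p = 0.0355) and of 0.51 ± 0.10 on counts (edgeR adjusted p = 6.2e-04). The FPKM call of Brca1 was close to the threshold: without control replicate 2 it was lost (0.26, adjusted p = 0.0525), as it was without any 1 of the other samples except shCTCF replicate 1 (adjusted p between 0.0508 and 0.133), while the count call held in each case. Bard1 (chromosome 1, 71074109 to 71149546) had 7.74, 6.43 and 6.84 FPKM in the controls, as against 3.36, 4.3 and 3.1 after knockdown. It was lower in all of them, with a log2 fold change of -0.81 ± 0.13 on FPKM (limma adjusted p = 6.5e-04) and of -0.82 ± 0.13 on counts (edgeR adjusted p = 9.2e-05).

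Brca2, whose product acts on the trimmed single strands, had 4.81, 2.27 and 4.54 FPKM in the controls, as against 3.94, 3.79 and 4.29 after knockdown. The low control value was that of replicate 2, and the log2 fold change was 0.08 ± 0.21 with it (limma adjusted p = 0.744) and -0.18 ± 0.09 without it (adjusted p = 0.101). Palb2, which links BRCA1 to BRCA2, had a mean of 3.26 ± 0.302 FPKM (SD, n = 3) in the controls, as against 3.03 ± 0.462 after knockdown, with a log2 fold change of -0.09 ± 0.12. Brip1, a helicase partner of BRCA1, had 5.08, 4.22 and 5.09 FPKM in the controls, as against 3.13, 4.24 and 3.77 after knockdown. Its groups overlapped narrowly, and its log2 fold change of -0.30 ± 0.13 did not pass the test (limma adjusted p = 0.0608), although it did without control replicate 2 (-0.37, adjusted p = 0.0207, and -0.25 on counts, adjusted p = 0.0304) or shCTCF replicate 2 (-0.38, adjusted p = 0.0468).

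Genes of end resection, the trimming of broken ends to single strands, were lower on FPKM in 5 of 6 cases, beside 44.2% of all genes, and on counts in 2 of the 3 tested. MRE11, RAD50 and NBN form the complex that first binds a break. Nbn (chromosome 4, 15885114 to 15919736) had 18, 15.4 and 20.0 FPKM in the controls, as against 5.48, 6.26 and 7.0 after knockdown. The lowest control was above 2 times the highest shCTCF value, and the log2 fold change was -1.37 ± 0.12 (limma adjusted p = 2.8e-05). On counts it was -1.28 ± 0.13 (edgeR adjusted p = 3.4e-06).

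Rad50 (chromosome 11, 53463021 to 53520821) had 28.8, 27.6 and 27.1 FPKM in the controls, as against 15.2, 15.6 and 17.4 after knockdown. Its log2 fold change was -0.76 ± 0.08 on FPKM (limma adjusted p = 6.2e-05) and -0.57 ± 0.08 on counts (edgeR adjusted p = 3.0e-05). Mre11a, the nuclease of the complex, had 12, 9.9 and 10.4 FPKM in the controls, as against 5.22, 5.44 and 5.28 after knockdown. The shCTCF values of Mre11a were tightly grouped and all under the controls (log2 fold change -0.89 ± 0.10, limma adjusted p = 7.5e-05). It had 7 counts in all samples together and was not tested on counts.

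Rbbp8 encodes CtIP, the factor that activates the MRE11 nuclease. It had 26.8, 22.0 and 25.1 FPKM in the controls, as against 14.6, 15.6 and 17.8 after knockdown, with no overlap (log2 fold change -0.59 ± 0.10, limma adjusted p = 0.0012). Blm, a helicase of long resection that also dissolves joined molecules, had 24.3, 16.4 and 22.1 FPKM in the controls, as against 13.1, 13.0 and 12.3 after knockdown. All shCTCF values of Blm lay under the lowest control, which was replicate 2 (log2 fold change -0.65 ± 0.14, limma adjusted p = 0.00317). Exo1, the exonuclease of long resection, was the exception of this role. It had a mean of 2.36 ± 0.339 FPKM (SD, n = 3) in the controls, as against 2.15 ± 0.208 after knockdown, with a log2 fold change of -0.09 ± 0.13 on FPKM and -0.04 ± 0.15 on counts.

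The paralogue genes Rad51b, Rad51c, Rad51d, Xrcc2 and Xrcc3, whose products help the trimmed strands to pair with the intact copy, were lower on FPKM in 2 of 4 tested cases, a share near the 44.2% of all genes. Rad51d had 7.05, 9.29 and 8.63 FPKM in the controls, as against 4.23, 2.99 and 2.59 after knockdown, without overlap (log2 fold change -1.14 ± 0.16, limma adjusted p = 3.9e-04). The values of Rad51d were summed over 9 transcript accessions, 3 of them above 0. Most of the difference lay in 1 accession, which had 3.48, 6.2 and 5.46 FPKM in the controls, as against 1.77, 0 and 0 after knockdown, whereas the accession with the highest mean over all samples gave a log2 fold change of -0.33 (limma adjusted p = 0.114). Rad51b had 2.5, 1.78 and 2.57 FPKM in the controls, as against 0.87, 1.01 and 1.1 after knockdown. It was low in level but separate between the groups, at -0.71 ± 0.14 on FPKM (limma adjusted p = 0.00238) and -1.17 ± 0.32 on counts (edgeR adjusted p = 0.0057).

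Rad51c had a mean of 2.7 ± 0.503 FPKM (SD, n = 3) in the controls, as against 2.37 ± 0.193 after knockdown, and did not pass (-0.13 ± 0.13). Xrcc2, another paralogue, had 6.33, 5.95 and 5.59 FPKM in the controls, as against 7.26, 6.09 and 6.59 after knockdown. Its groups overlapped on FPKM (0.13 ± 0.10, limma adjusted p = 0.249), while on counts it was higher by 0.31 ± 0.11 (edgeR adjusted p = 0.0246), and this call was lost when counts were scaled by library size only (0.15, adjusted p = 0.265). It was also lost without control replicate 3 or shCTCF replicates 1 or 3 (adjusted p between 0.0525 and 0.0921), whereas the FPKM change passed with every sample at the same median (0.29, adjusted p = 0.0293). Xrcc3 was listed at 0 FPKM in all samples but had 88, 21 and 102 counts in the controls, as against 68, 66 and 92 after knockdown. The zeros of Xrcc3 in the FPKM table therefore cannot be read as absent expression, and 78 genes with at least 100 counts were listed at 0 FPKM in all samples. On counts Xrcc3 gave 0.04 ± 0.16 (edgeR adjusted p = 0.856). Klc1 overlaps it on the other strand, and the counts leave out fragments in the stretch that both genes share.

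Of the other helpers of strand exchange, the translocases RAD54L and RAD54B remodel DNA while the strands pair. Rad54l was listed at 5.94, 6.99 and 6.78 FPKM in the controls and at 0 in all 3 shCTCF samples. A value listed at 0 can be a failed estimate, and the count table, with 4, 0 and 8 counts in the controls, as against 0, 4 and 0 after knockdown, was too sparse to check it, so no fold change is given. The levels also moved between the 3 transcript accessions of Rad54l, with all of the value in 1 of them in control replicates 1 and 2 and in the other 2 in replicate 3. Rad54b had 5.3, 5.39 and 4.99 FPKM in the controls, as against 4.21, 3.53 and 3.4 after knockdown. The groups were apart, with -0.41 ± 0.10 on FPKM (limma adjusted p = 0.00851) and -0.60 ± 0.18 on counts (edgeR adjusted p = 0.0102), and the FPKM call was lost when every sample was set to the same median (-0.26, adjusted p = 0.0626). The count call was lost without shCTCF replicate 3 (-0.47, adjusted p = 0.0552). Rad54b shares exons with Fsbp on the same strand. Rad51ap1, which stimulates the joining of strands, had a mean of 11.6 ± 1.74 FPKM (SD, n = 3) in the controls, as against 10.0 ± 1.05 after knockdown, and did not pass (-0.19 ± 0.13, limma adjusted p = 0.212), although it did without control replicate 2 (-0.30, adjusted p = 0.022).

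The Fanconi core complex is the ubiquitin ligase that marks FANCI and FANCD2 at a crosslink. Of its 8 genes 7 were tested, and 3 were lower, 1 was higher and 3 did not pass, shares near those of all genes (44.2% lower and 28.8% higher). Fancf (chromosome 7, 59115949 to 59117637), an adaptor of the complex, had 7.55, 4.66 and 6.75 FPKM in the controls, as against 1.5, 3.01 and 2.6 after knockdown. It was lower in every shCTCF sample, by -1.13 ± 0.22 on FPKM (limma adjusted p = 0.00205) and -1.21 ± 0.26 on counts (edgeR adjusted p = 0.00138), and it overlaps Gas2 on the other strand. Fance, which binds FANCD2, had 7.23, 10.1 and 8.53 FPKM in the controls, as against 3.14, 4.05 and 4.42 after knockdown. The sums of Fance did not overlap (-0.98 ± 0.15, limma adjusted p = 5.2e-04), but the estimate moved between its 4 accessions from sample to sample, and the accession with the highest mean alone gave 0.18 (adjusted p = 0.822).

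Fancl, the catalytic subunit, had 4.01, 3.44 and 4.57 FPKM in the controls, as against 1.45, 2.85 and 2.42 after knockdown. The groups did not overlap (-0.65 ± 0.18, limma adjusted p = 0.0134), and the call was lost on the accession with the highest mean (-1.08, adjusted p = 0.106). Fancm, the translocase that anchors the complex on DNA, was the member of the complex that rose. It had 2.63, 1.72 and 2.56 FPKM in the controls, as against 3.41, 3.06 and 3.61 after knockdown, all above the controls (0.41 ± 0.14, limma adjusted p = 0.0317). Without control replicate 2, the lowest control, the log2 fold change of Fancm was 0.27 ± 0.10 (adjusted p = 0.0359), and without shCTCF replicates 1 and 3 in turn the adjusted p was 0.0818 and 0.098. The call of Fancm was also lost on the accession with the highest mean (0.30, limma adjusted p = 0.154) and without a filter on low values (limma adjusted p = 0.0564). Fancm had 1 count in all samples together and was not tested on counts.

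Fanca, Fancb and Fancg did not pass, with log2 fold changes of 0.23 ± 0.24, 0.20 ± 0.18 and -0.27 ± 0.14. In Fanca the controls themselves were widely spread, at 2.89, 0.955 and 1.36 FPKM, compared with 1.99, 1.91 and 2.32 in the shCTCF samples. Without control replicate 2 the FPKM changes were 0.02 for Fanca and 0.04 for Fancb. Without the high value of control replicate 1 Fanca was higher after knockdown (0.51 on FPKM, adjusted p = 0.0218; 0.56 on counts, adjusted p = 0.0441), and without control replicate 3 Fancg was lower (-0.39, adjusted p = 0.0291). Fancc was listed at 0 FPKM in 5 samples and at 4.26 in control replicate 2, with at most 13 counts in a sample, and was not tested.

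Both genes of the FANCI-FANCD2 clamp, which closes around DNA at a crosslink, were lower on FPKM, beside 44.2% of all genes. On counts, 1 of the 2 was lower, beside 34.3% of all genes. Fancd2 (chromosome 6, 113481676 to 113547014) had 9.13, 7.25 and 8.07 FPKM in the controls, as against 2.55, 2.79 and 2.71 after knockdown. Its shCTCF values were nearly equal, and the mean was 67.1% lower (-1.31 ± 0.11, limma adjusted p = 1.8e-05). Its 2 accessions were each lower, at means of 4.45 and 3.7 FPKM in the controls as against 1.13 and 1.56 after knockdown. On counts, where Fancd2 kept only 3 to 27 fragments per sample, the change was -0.87 ± 0.36 (edgeR adjusted p = 0.0508), -0.97 without control replicate 2 (adjusted p = 0.0355) and -0.54 without control replicate 1 (adjusted p = 0.306), and DESeq2 gave -0.77 (adjusted p = 0.251). Fanci (chromosome 7, 86537224 to 86595150) had 5.51, 4.46 and 5.04 FPKM in the controls, as against 2.38, 2.62 and 2.63 after knockdown. It was lower by -0.76 ± 0.11 on FPKM (limma adjusted p = 3.8e-04) and by -0.70 ± 0.17 on counts (edgeR adjusted p = 0.00307), and it overlaps Polg on the other strand.

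Of the nucleases that cut joined DNA molecules, MUS81 and EME1 act as a pair and SLX4 is the scaffold that holds several such enzymes. Mus81 had 7.39, 6.22 and 8.52 FPKM in the controls, as against 2.57, 2.62 and 3.5 after knockdown. The groups were far apart (-1.10 ± 0.14, limma adjusted p = 2.2e-04), and Mus81 had 0 counts in all samples. Eme1 was the reverse case, listed at 0 FPKM in all samples but with 118, 41 and 134 counts in the controls, as against 54, 64 and 68 after knockdown. As CPM (counts scaled to library size), Eme1 had 19.4 ± 3.07 CPM (SD, n = 3) in the controls and 11.1 ± 1.49 after knockdown, a log2 fold change of -0.75 ± 0.18 (edgeR adjusted p = 0.0023). Eme1 overlaps Lrrc59 on the other strand, and fragments in the shared stretch are not among its counts. Slx4 had 9.73 ± 1.07 FPKM in the controls, as against 9.13 ± 0.309 after knockdown, and it passed in neither table (-0.08 ± 0.10 on FPKM, 0.14 ± 0.09 on counts), but without control replicate 2 it was higher on counts (0.22, adjusted p = 0.00715).

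Of the 6 checkpoint genes 4 were lower on FPKM, namely Atr, Chek1, Topbp1 and Atm, beside 44.2% of all genes, and the call of Atm was lost in 5 of 6 fits that left out 1 sample. ATR is activated by TOPBP1 at single-stranded DNA and passes the signal through claspin (Clspn) to CHEK1. Atr (chromosome 9, 95758016 to 95852063) had 13.9, 8.41 and 13.1 FPKM in the controls, as against 4.03, 4.2 and 4.0 after knockdown. All shCTCF values were under the lowest control, that of replicate 2, and the log2 fold change was -1.31 ± 0.17 on FPKM (limma adjusted p = 2.4e-04) and -1.45 ± 0.16 on counts (edgeR adjusted p = 5.0e-06). Chek1 (chromosome 9, 36516067 to 36534243) had 9.79, 5.74 and 9.92 FPKM in the controls, as against 2.5, 3.35 and 3.12 after knockdown. It fell by a like amount, -1.22 ± 0.20 on FPKM (limma adjusted p = 7.9e-04) and -1.39 ± 0.16 on counts (edgeR adjusted p = 6.4e-06). Without control replicate 2 the FPKM changes were -1.51 for Atr and -1.45 for Chek1.

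Topbp1 (chromosome 9, 103207657 to 103252757) had the highest level of the list. It had 39.7, 36.1 and 36.6 FPKM in the controls, as against 21.6, 24.6 and 25.1 after knockdown, without overlap (-0.64 ± 0.08, limma adjusted p = 2.2e-04), and the counts gave -0.50 ± 0.08 (edgeR adjusted p = 1.5e-04). Clspn had 13.4, 15.2 and 12.3 FPKM in the controls, as against 12.6, 14 and 14.4 after knockdown. Its groups overlapped fully, with a log2 fold change of 0.00 ± 0.10 on FPKM (limma adjusted p = 0.98) and 0.19 ± 0.09 on counts (edgeR adjusted p = 0.0906), which passed without control replicate 2 (0.24, adjusted p = 0.00513). Clspn stood at rank 6 of the list by FPKM level in the controls and at rank 4 after knockdown, while Atr went from rank 7 to rank 12 and Nbn from rank 5 to rank 10.

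In the ATM branch, which answers breaks with 2 ends, Atm had 7.42, 4.44 and 6.61 FPKM in the controls, as against 3.84, 4.11 and 4.27 after knockdown. The values of control replicate 2 and the highest shCTCF sample were close, and the change was -0.47 ± 0.16 on FPKM (limma adjusted p = 0.031) and -0.45 ± 0.14 on counts (edgeR adjusted p = 0.0122). Without control replicate 2 the FPKM change of Atm was -0.66 ± 0.09 (adjusted p = 3.6e-04), and leaving out any 1 of the other 5 samples gave an adjusted p between 0.0655 and 0.099. The count call was lost without control replicates 1 or 3 or shCTCF replicates 1 or 2 (adjusted p between 0.0524 and 0.0827). The FPKM call was also lost when every sample was set to the same median (adjusted p = 0.102). Chek2, the target of ATM, had 4.55, 3.4 and 4.48 FPKM in the controls, as against 2.83, 4.83 and 4.08 after knockdown. The groups overlapped, and the log2 fold change of -0.08 ± 0.18 did not pass (limma adjusted p = 0.703).

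Ratios of 2 genes within a sample do not depend on how samples are scaled to each other, and they showed which partners moved unequally. The 8 ratios were chosen after the values were seen and are given as a description. The FPKM ratio of Brca1 to Bard1 was 0.81, 0.879 and 0.865 in the controls, as against 1.97, 1.77 and 2.72 after knockdown, so that Bard1 was the higher of the pair before and Brca1 after. The ratio of Chek1 to Clspn was 0.731, 0.377 and 0.808 in the controls, as against 0.199, 0.24 and 0.217 after knockdown. The ratio of Fancd2 to Fanci was 1.66, 1.63 and 1.6 in the controls, as against 1.07, 1.07 and 1.03 after knockdown. Both clamp genes fell, and their levels lay closer together after knockdown. The ratio of Atr to Atm was 1.87, 1.89 and 1.99 in the controls, as against 1.05, 1.02 and 0.936 after knockdown, and it was steady even in control replicate 2, where both genes were low. The ratio of Nbn to Rad50 averaged 0.64 ± 0.0924 (SD, n = 3) in the controls, as against 0.388 ± 0.024 after knockdown, and that of Mre11a to Rad50 0.386 ± 0.0291 and 0.332 ± 0.0257. The groups of all 8 ratios did not overlap, and 3 samples against 3 cannot give an exact two-sided permutation p under 0.1.

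**Figure D3:**
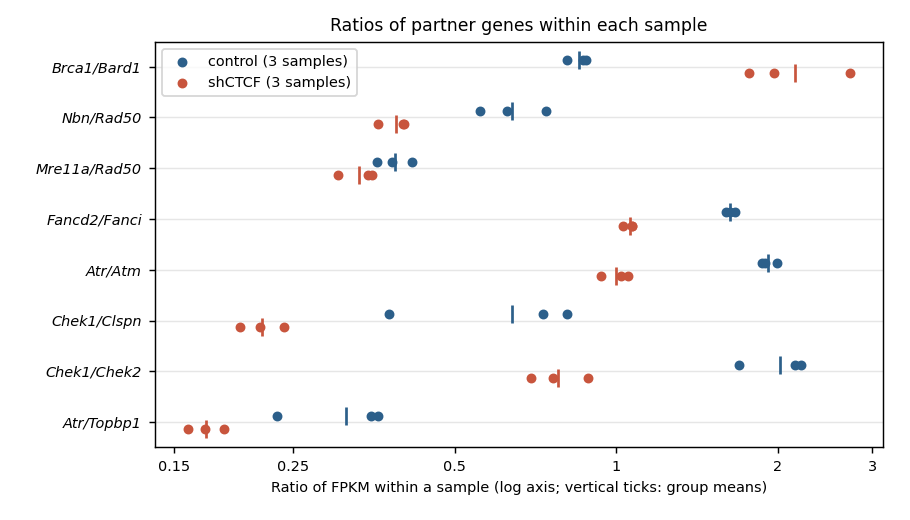
Ratio of the FPKM of 2 partner genes within each of the 6 samples on a log axis, with 1 point per sample, controls in blue, shCTCF samples in red and vertical ticks at the group means. The ratio of Brca1 to Bard1 passes from under 1 to above 1, those of Atr and Chek1 to their neighbours fall, and that of Mre11a to Rad50 moves least.

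Of 78 further genes of break repair, the Fanconi pathway and the checkpoint, 77 were found and 72 were tested on FPKM, of which 45 were lower, 6 were higher and 21 did not pass, with a median log2 fold change of -0.44, beside 44.2% lower, 28.8% higher and a median of -0.17 over all genes. On counts, 21 of 50 tested were lower, 6 were higher and 23 did not pass, beside 34.3% lower and 34.8% higher over all genes. On the log2(FPKM + 1) scale, the changes furthest below 0 were those of Cdc25b, a phosphatase of entry into mitosis (-2.67 ± 0.09), H2ax, the histone marked at breaks (-2.31 ± 0.06), Lig3, a DNA ligase (-1.96 ± 0.22), and Mdc1, which binds the marked histone (-1.78 ± 0.10). By the ratio of means the order differs: Polm, a polymerase of end joining named after its values were seen, had the lowest, 0.0945 (-1.74 ± 0.18), and Cdc25b had 0.11. Cdc25b and Lig3 had too few counts for a test on counts. H2ax had 70.6, 72.3 and 73.1 FPKM in the controls, as against 13.8, 13.4 and 14.1 after knockdown. Those furthest above 0 were Cdc25a, a phosphatase of entry into DNA replication (1.16 ± 0.10), Zswim7, a cofactor of strand exchange (0.92 ± 0.24), and the end joining genes Dclre1c (0.62 ± 0.13) and Lig4 (0.49 ± 0.13). Lig4 and Dclre1c thus rose. End joining genes as a group, however, had 9 lower and 2 higher of 14 tested on FPKM, beside 44.2% and 28.8% of all genes.

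Of 25 genes of dividing cells 19 were lower and 6 were higher on FPKM (Pcna, Ccne1, Ccne2, E2f1, Rrm2 and Cdc6), with a median log2 fold change of -1.19. Among all genes 44.2% were lower and 28.8% higher. On counts, 14 of 19 tested were lower and 3 higher, beside 34.3% and 34.8% of all genes. E2f1 did not pass there (0.13, edgeR adjusted p = 0.736). Top2a fell from a mean of 163 to 65.4 FPKM and Mcm3 from 99.4 to 40.5, while Rrm2 rose from 67.3 to 165. The summed FPKM of these 25 genes was 1260, 1270 and 1220 in the controls, as against 735, 762 and 768 after knockdown. The sum of the 38 recombination, Fanconi and checkpoint genes divided by this sum was 0.265, 0.227 and 0.26 in the controls, as against 0.25, 0.263 and 0.265 after knockdown. These ratios overlapped between the groups (exact two-sided permutation p = 0.7), but a few abundant genes, some of which rose, carry much of the second sum. The RNA data do not measure the share of dividing cells. In a separate assay, the study reports that fewer cells took up EdU, a label of DNA synthesis, after CTCF knockdown. The part of dividing cells in the lower levels was not tested. Of the 38 genes, 4 above 0 in both groups (Nbn, Fancd2, Atr and Chek1) had a change below the median of the dividing-cell list.

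**Figure D4:**
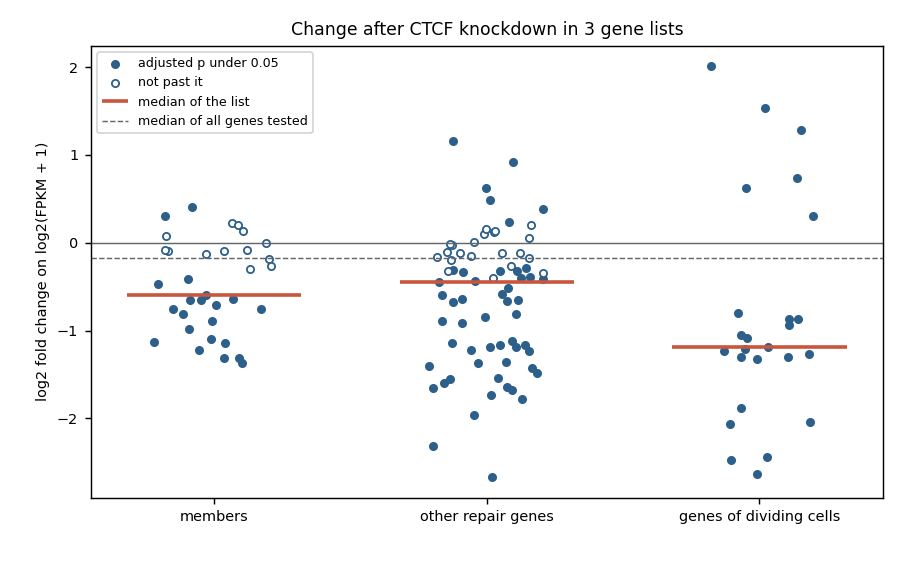
log2 fold change on log2(FPKM + 1) of the tested genes of 3 lists, with 1 point per gene, filled where the adjusted p is under 0.05, the red bar at the list median and the dashed line at the median of all genes tested. The medians are -0.59 for the 35 tested genes of the list (Rad54l is in the median but not drawn), -0.44 for the other repair genes and -1.19 for the genes of dividing cells, which hold both large falls and 6 rises.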

How the data were processed

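Expression was measured by stranded mRNA-seq in 3 control and 3 shCTCF samples, grouped by the labels, and all 6 were used. The authors aligned reads to mm9 with HISAT2. The deposited FPKM were calculated by the authors with Cufflinks 2.2.1 per transcript accession. The deposited counts are from featureCounts 1.6.2, run by the authors, as whole fragments per accession, without use of strand and without fragments that overlapped more than 1 accession.

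Accessions were given symbols with a RefSeq table (GRCm38.p6, names only), and FPKM and counts were summed per symbol. The share of counts without a symbol was 0.603% or less. Gene positions (mm9) were taken from the count table. Genes that averaged 1 FPKM or more were tested on log2(FPKM + 1) with limma 3.58.1 (eBayes with trend), and a fold change on this scale understates the change of low genes. Counts were tested with edgeR 4.0.16 (quasi-likelihood test, TMM, filterByExpr, R 4.3.3). Two-sided p-values were corrected over all tested genes (Benjamini-Hochberg), with a threshold of 0.05. The standard error of an edgeR change was derived from its F statistic. Both fits were tested on simulated data. The simulated data had few changed genes, as many raised as lowered, and 1 fixed spread. They therefore do not show how the fits behave here, where most genes were called. Control replicate 2 had 1686052 counts, so that low counts are least precise in it.

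The genes and lists were chosen with earlier results of these data known. All 38 genes are named. Of the other repair genes, the 4 lowest and 4 highest fold changes among those that passed without overlap are named, and of each marker list some of the genes with the 3 highest levels in either group and defining markers at 0. Hdc and Ctsg, and Polm of the repair genes, were added after their values were seen. Alternatives were DESeq2 1.42.0, other scalings, filters, pseudocounts and accession choices, a replicate block, and the omission of each sample in turn. Sequences and motif shares are from RefSeq promoter windows. No promoter window was found for 8 of the 38 genes.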

Additional observations from a re-analysis of the deposited data

How the results depend on the processing

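Control replicate 2 was the smallest library, genes with several accessions depend on how fragments were divided among them, and values listed at 0 FPKM can be failed estimates. Of 155 alternative values of the main counts and of Ctcf, 141 stayed within 1.5 times, or kept direction and call. On FPKM, the number of genes of the list that were lower ranged from 14 (mean of at least 5 FPKM) to 22 (without control replicate 2). The filter at 5 FPKM left only 19 genes of the list tested, and 3754 of all 7891 genes tested were then lower. On the highest accession per gene, 15 of 35 tested were lower, a share near that of all genes (3882 of 9878). The number that were higher, 2, became 0 without a filter on low values, 1 with a mean of at least 5 FPKM, 0 on the highest accession per gene, and between 0 and 2 when 1 sample was left out (1 without control replicate 2). On counts, the number higher was 1 when scaled by library size only and between 1 and 4 when 1 sample was left out (4 without control replicate 2), and the 12 lower genes compare with 20 in the FPKM table.

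The replicate numbers are shared by both groups, but deviations from the group means of same-numbered samples correlated at -0.041, 0.018 and 0.0395, so the numbers were not taken as pairs. With the replicate block, 20 genes of the list were lower and 1 higher on FPKM (Brca1 lost its call), and 12 were lower and 2 higher on counts.

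Of 769 alternative values of single genes, 692 kept direction and call, 33 lost and 16 gained a call, and 28 changed sign. Only for Fance did the change of sign concern a called gene (0.18 on the highest accession, adjusted p = 0.822). With every sample at the same median, the FPKM changes of Palb2, Exo1, Rad51c, Slx4 and Chek2 were 0.05, 0.04, 0.00, 0.09 and 0.07. Slx4 was 0.08 with quantile normalization and Chek2 0.22 on the highest accession. With 1 sample left out, the range on FPKM was -0.18 to 0.23 for Brca2, -0.21 to 0.09 for Chek2 and -0.06 to 0.08 for Clspn, and on counts -0.11 to 0.06 for Exo1, -0.01 to 0.12 for Xrcc3 and -0.31 to 0.34 for Fancb. On counts, Exo1 was 0.02 with DESeq2 and 0.01 with RLE size factors, Fancb 0.03 and 0.04, and with library size only Xrcc3 was -0.13 and Slx4 -0.03. The cause of these changes was not tested.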
